A study of Mus musculus with 3 samples.

Results

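The prion protein gene Prnp, the amyloid precursor family (App, Aplp1 and Aplp2) and 5 genes of the secretases that cut it (Adam10, Bace1, Psen2, Ncstn and Aph1a) are described here in the mouse hippocampus. These 9 genes were taken by symbol from a table of 54532 genes, and all 9 were found once. RNA-seq was made from 3 samples of 10-month-old mice on a C57BL/6 background, 1 each of WT, PS19, and PS19 that are also heterozygous for Zbp1 (PS19 Zbp1+-). Both PS19 groups carry a transgene for mutant human tau, and the promoter that drives it is that of mouse Prnp. Zbp1 is a protein that binds left-handed nucleic acids and can start necroptosis. With 1 library per genotype no difference below has a replicate check, no test between genotypes was possible, and every interval covers counting error only.

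The prion protein is an abundant glycoprotein anchored to the outer face of the neuronal membrane, and its misfolded form causes prion disease. App is a membrane protein that is cut along either of a pair of routes. In one, an alpha-secretase such as Adam10 cuts inside the amyloid beta sequence. In the other, Bace1, the beta-secretase of neurons, cuts at its start and the gamma-secretase complex then frees the amyloid beta peptide. That complex joins a presenilin such as Psen2, nicastrin (Ncstn), an Aph1 protein and Psenen. Aplp1 and Aplp2 are cut by the same enzymes but lack the amyloid beta sequence.

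Whole reads could be recovered from the FPKM, a level scaled by gene length and library size, and numbered 16400328 to 17109734 per library. For Zbp1 itself WT held 5 reads, PS19 held 91 and PS19 Zbp1+- held 0, so the library labelled PS19 Zbp1+- held no read of the gene of which 1 allele should remain. Zbp1 was barely detected in WT as well (FPKM 0.082), so the 0 reads do not by themselves tell the genotype. Mouse Mapt, the native tau gene, was at an FPKM of 63.0 (WT), 65.1 (PS19) and 65.3 (PS19 Zbp1+-). The Y-linked gene Ddx3y had 711 reads in PS19 Zbp1+- and 0 in the others, and Xist had 0 reads there against 11062 in WT and 13350 in PS19, so sex and Zbp1 genotype cannot be told apart. Neuronal markers (10 genes) summed to an FPKM of 1235 (WT), 1108 (PS19) and 1541 (PS19 Zbp1+-). The matching sums were 422, 1280 and 434 for 8 astrocyte markers, 127, 409 and 133 for 8 microglial markers, and 834, 1494 and 544 for 7 oligodendrocyte markers. Gfap alone was at 98.4, 768 and 112, and the other 7 astrocyte markers summed to 323, 512 and 321. Among neuronal markers Slc17a7 was at 206, 172 and 371 and Camk2a at 346, 348 and 458. Snap25 was highest in WT, at 234, 180 and 197. The 8 choroid plexus markers summed to 3399, 2161 and 23.2, and Slc4a5 alone among all markers was at 0, in PS19 Zbp1+-. In bulk tissue, fewer cells of a type and less RNA per cell cannot be told apart.

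The promoters of 4 genes are shown because Prnp's drives the transgene and because Aplp1 lay opposite to Aplp2 and Adam10 across the 3 libraries. Each is the sequence just before the RefSeq start (GRCm38.p6), 5′ to 3′ on the gene's strand. Capitals mark GGGCGG, the core of the GC box, and CCAAT, on either strand. The windows are chr2:131909678-131909927 (plus strand), chr7:30445583-30445832 (minus), chr9:31211849-31212098 (minus) and chr9:70678732-70678981 (plus).
Prnp: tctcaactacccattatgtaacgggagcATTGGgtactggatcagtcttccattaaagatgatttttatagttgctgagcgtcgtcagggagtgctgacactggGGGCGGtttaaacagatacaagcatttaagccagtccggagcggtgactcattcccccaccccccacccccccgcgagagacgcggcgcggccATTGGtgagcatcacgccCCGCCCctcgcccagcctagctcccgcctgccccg
Aplp1: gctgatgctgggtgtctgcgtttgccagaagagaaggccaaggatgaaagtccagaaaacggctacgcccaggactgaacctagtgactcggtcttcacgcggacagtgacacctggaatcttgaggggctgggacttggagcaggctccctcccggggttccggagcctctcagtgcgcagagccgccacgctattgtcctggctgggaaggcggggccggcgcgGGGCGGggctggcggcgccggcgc
Aplp2: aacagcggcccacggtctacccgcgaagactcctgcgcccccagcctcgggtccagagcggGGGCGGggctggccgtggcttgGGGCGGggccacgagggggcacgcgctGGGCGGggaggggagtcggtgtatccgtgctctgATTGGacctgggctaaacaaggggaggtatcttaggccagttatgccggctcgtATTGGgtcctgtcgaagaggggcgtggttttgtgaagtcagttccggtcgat
Adam10: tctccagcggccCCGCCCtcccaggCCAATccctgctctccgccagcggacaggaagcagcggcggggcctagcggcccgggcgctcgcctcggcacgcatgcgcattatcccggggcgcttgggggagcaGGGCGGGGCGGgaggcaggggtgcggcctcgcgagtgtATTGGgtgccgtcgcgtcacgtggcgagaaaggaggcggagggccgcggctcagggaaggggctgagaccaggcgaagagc

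In these 250 bases GGGCGG was found 2 times for Prnp, 1 time for Aplp1, and 3 times each for Aplp2 and Adam10, where 2 of the Adam10 matches share bases. It is held by 32.7% of 32851 promoter windows of this length. CCAAT was found 2 times each for Prnp, Aplp2 and Adam10 and 0 times for Aplp1, and is held by 33.9% of windows. Of the genes not shown, Aph1a, nearly level over the libraries, also had 2 matches, and App, Ncstn and Psen2 had 0. The RefSeq windows of Psen2 lie wholly inside the gene as the deposited positions place it. These and the next sequences were also sought on either strand. Prnp was the only one of the 8 genes with a window to match TATAAA or the AP-1 sequence TGACTCA. The TATAAA match (1, held by 12.4% of windows) lies on the strand opposite to the one printed, and the AP-1 match (1, 4.46%) on the printed strand. The core of the interferon-stimulated response element matched in 0 of the 8 genes and in 2.98% of windows. The Prnp window is 58.8% G or C, Aplp1 66.0%, Aplp2 66.4% and Adam10 74.0%, against a median of 52.4% over all windows. Such matches describe letters only.

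The members spanned a wide range of level per gene length. In WT the order by FPKM was Aplp1 (519), Prnp (405), App (113), Aplp2 (94.97), Adam10 (16.7), Ncstn (16.5), Aph1a (11.6), Bace1 (10.4) and Psen2 (4.74). Prnp and Aplp1 exchanged the top place in PS19, and Bace1 passed Adam10 in PS19 Zbp1+-. Adam10 and Ncstn in WT, with 1415 and 1131 reads, differ by less than their counting error in level. The place of App depends on the length used. The table divides App by 12996 bases, 4.09 times the 3176 bases of its principal transcript in GENCODE M21. Per principal transcript length the WT levels were 669 for Aplp1, 463 for App, 435 for Prnp and 154 for Aplp2. Differences between libraries do not depend on this length.

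**Figure D1:**
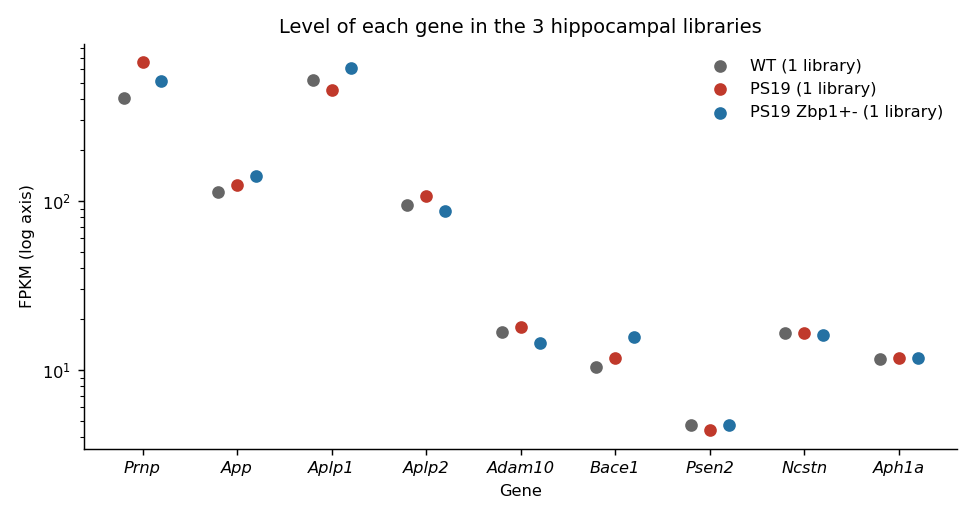
FPKM (log axis) of the 9 genes, 1 point per library. Prnp was highest in PS19, Aplp1 lowest there, Bace1 highest in PS19 Zbp1+-, and Ncstn and Aph1a nearly level.

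Prnp (ENSMUSG00000079037; GRCm38 chromosome 2, 131909928 to 131938429, plus strand) stood at an FPKM of 405 (WT), 659 (PS19) and 512 (PS19 Zbp1+-), from 16390, 26704 and 18979 reads. PS19 was thus the high library, WT the low one, and PS19 Zbp1+- lay between them. On the log2(FPKM + 1) scale, used for every difference below, PS19 was 0.70 above WT. Of 12703 protein-coding genes that reached an FPKM of 1 in WT or PS19, 4.58% had a larger difference. In reads the ratio of PS19 to WT was 1.63, with an exact 95% counting interval of 1.60 to 1.66. By FPKM Prnp ranked 43 among protein-coding genes of WT, against 17 in PS19 and 28 in PS19 Zbp1+-. Of 324 protein-coding genes whose mean FPKM reached 100, 15 were at least 1.5-fold higher in PS19 than in WT, Prnp among them. The 3 exons of the Prnp transcript cover 2184 bases, of which 762 (131936430 to 131937191, all in exon 3) are coding in the annotation and 1422, or 65.1%, are untranslated. Prion promoter vectors of the kind used for such transgenes carry untranslated Prnp exon sequence beside the promoter. The table gives 1 value per gene, so reads of the native gene and of any such sequence cannot be told apart. The sums of glial markers given above were also highest in PS19. There 8 of 8 astrocyte, 7 of 8 microglial and 7 of 7 oligodendrocyte markers were above WT, against 46.3% of all genes tested. Their part in the Prnp difference was not tested.

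PS19 Zbp1+- stood 0.36 below PS19 and 0.34 above WT in Prnp. The read ratio of PS19 Zbp1+- over WT was 1.26 (exact 95% interval 1.24 to 1.29). Per unit of Aplp1, which does not depend on how the libraries are scaled, the ratio of Prnp to Aplp1 FPKM was 0.781 (WT), 1.46 (PS19) and 0.842 (PS19 Zbp1+-). Per unit of App it was 3.59, 5.31 and 3.66, and per unit of Aplp2 4.27, 6.14 and 5.91. PS19 was therefore the highest library against each App family gene, but PS19 Zbp1+- came near WT only against Aplp1 and App.

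Within 500 kb of Prnp lie 11 other protein-coding genes, of which 8 reached an FPKM of 1 in any library. The nearest of these 8, Rassf2, lies 50986 bases away and had an FPKM of 3.77 (WT), 8.79 (PS19) and 4.83 (PS19 Zbp1+-). Its difference of PS19 from WT was 1.04, larger than that of Prnp, and its order over the libraries was the same. The other 7 ranged from -0.35 for Tmem230 to 0.41 for Smox in PS19 against WT. Adra1d, an adrenergic receptor, was lowest in PS19 (39.3, 32.3 and 72.2). Prnd, which encodes the prion-like protein doppel and starts 12432 bases from the end of Prnp, had 5 reads in WT and 0 in both others. Among the 8 expressed neighbours both signs occurred in each comparison with WT.

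**Figure D2:**
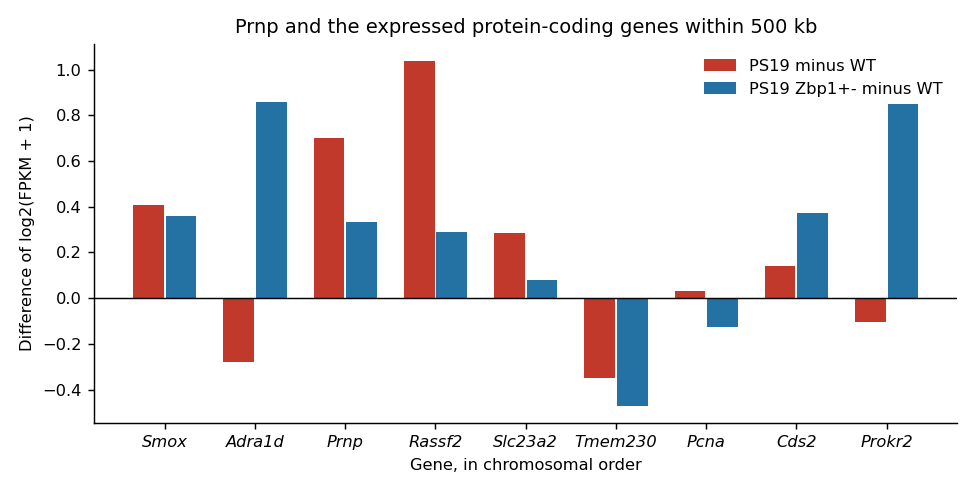
Difference of log2(FPKM + 1) from WT for Prnp and the 8 expressed protein-coding genes within 500 kb, in chromosomal order, for PS19 (red) and PS19 Zbp1+- (blue), 1 library each. Rassf2 and Prnp had the highest PS19 bars, at 1.04 and 0.70, and Adra1d, Tmem230 and Prokr2 were below 0 in PS19.

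The pattern most like that of Prnp was sought among 4830 protein-coding genes whose mean FPKM reached 10, by the distance between the pairs of differences (PS19 minus WT, PS19 Zbp1+- minus PS19) over the 3 libraries. The 5 nearest were Scn1a, a sodium channel (distance 0.022), Sema4d, a semaphorin (0.075), Slc41a1, a magnesium transporter (0.086), Zbtb16, a transcription factor (0.088), and Creg1 (0.090). Scn1a had an FPKM of 7.60 (WT), 12.9 (PS19) and 9.67 (PS19 Zbp1+-). All 5 were far below Prnp in level, the highest being Slc41a1 at 23.5 in PS19. Within a distance of 0.2 from Prnp lay 30 genes.

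The 3 App family genes did not move together. App (ENSMUSG00000022892; chromosome 16, 84949685 to 85173766, minus strand) was at an FPKM of 113 (WT), 124 (PS19) and 140 (PS19 Zbp1+-), lowest in WT and highest in PS19 Zbp1+-. Aplp1 (ENSMUSG00000006651; chromosome 7, 30434982 to 30445535, minus strand) was at 519, 453 and 608, lowest in PS19. Aplp2 (ENSMUSG00000031996; chromosome 9, 31149557 to 31211815, minus strand) was at 94.97, 107 and 86.6, highest in PS19. As deposited, the read ratio of PS19 Zbp1+- over PS19 was 1.34 (1.32 to 1.37) for Aplp1 and 0.807 (0.784 to 0.831) for Aplp2.

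In PS19 against WT, App differed by 0.13, Aplp1 by -0.20 and Aplp2 by 0.17. In PS19 Zbp1+- against PS19 the differences were 0.17, 0.42 and -0.31 as deposited, -0.015, 0.24 and -0.49 when scaled by total reads, and -0.11, 0.14 and -0.59 under TPM (each library rescaled to the same FPKM sum). These comparisons share the PS19 library. In PS19 Zbp1+- against WT the differences were 0.31, 0.23 and -0.13 as deposited. They were 0.15, 0.072 and -0.29 by total reads, and 0.15, 0.070 and -0.29 under TPM. The neuronal markers had the order of Aplp1 in their sum (1235, 1108 and 1541), though not in each gene. Of the 10, as deposited, 8 were higher in PS19 Zbp1+- than in PS19, 7 in PS19 Zbp1+- than in WT, and 3 in PS19 than in WT. The matching shares of all genes tested were 53.7%, 51% and 46.3%. Aplp2 was highest in PS19, as were the sums of the astrocyte markers (323, 512 and 321 without Gfap), microglial markers (127, 409 and 133) and oligodendrocyte markers (834, 1494 and 544). The part of these cell types in either gene was not tested.

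Ratios within a library are free of the scaling between libraries. Aplp1 exceeded Aplp2 5.47-fold in WT (95% interval 5.34 to 5.60), 4.22-fold in PS19 (4.12 to 4.32) and 7.02-fold in PS19 Zbp1+- (6.85 to 7.20). These intervals cover counting error only and not the spread between animals. App made up 40.9% of the reads of the family in WT (40.5% to 41.3%), 44.7% in PS19 (44.3% to 45.1%) and 43.7% in PS19 Zbp1+- (43.3% to 44.1%). Aplp2 made up 15.5%, 17.5% and 12.2%. As shares of summed FPKM, Aplp1 held 71.4%, 66.2% and 72.9%.

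**Figure D3:**
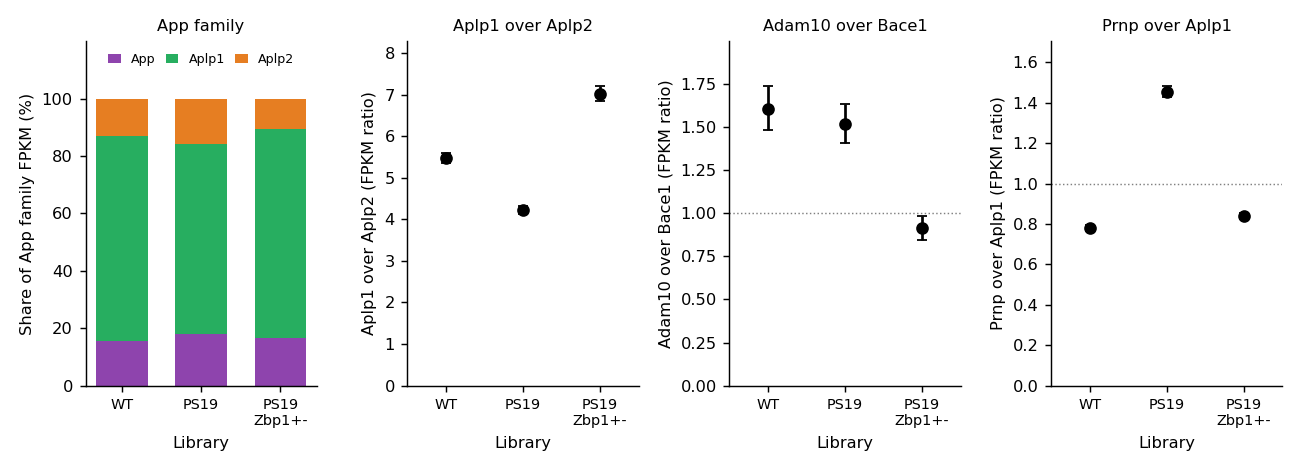
Ratios within each library. The first panel stacks the shares of App, Aplp1 and Aplp2 in their summed FPKM, and the other panels give the FPKM ratios of Aplp1 to Aplp2, Adam10 to Bace1 and Prnp to Aplp1 with exact 95% counting intervals, 1 library per point. Adam10 over Bace1 lay below 1 (dotted line) in PS19 Zbp1+- only, at 0.912, and Prnp over Aplp1 was above 1 in PS19 only.

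Adam10 (ENSMUSG00000054693; chromosome 9, 70678997 to 70780229, plus strand), the main alpha-secretase of neurons, was at an FPKM of 16.7 (WT), 17.9 (PS19) and 14.3 (PS19 Zbp1+-). Bace1 (ENSMUSG00000032086; chromosome 9, 45838580 to 45864399, plus strand) had 10.4, 11.8 and 15.7. Both were slightly higher in PS19 than in WT, by 0.10 for Adam10 and 0.17 for Bace1. The read ratio of Adam10 (1.07) had an interval that held 1, and that of Bace1 (1.14, 1.05 to 1.23) did not. The 2 genes parted in PS19 Zbp1+-. There Adam10 was the lowest of the 3 libraries and Bace1 the highest. Against WT, as deposited, Bace1 was 0.55 higher in PS19 Zbp1+-, which 7.98% of 12436 tested genes exceeded, and Adam10 was 0.21 lower. Under TPM, and also by total reads, these differences were 0.41 for Bace1 and -0.35 for Adam10. In reads, at the deposited scaling, the Bace1 ratio was 1.51 (1.40 to 1.63) and the Adam10 ratio 0.859 (0.794 to 0.930). Adam10 over Bace1 was 1.61 in WT (1.48 to 1.74), 1.52 in PS19 (1.41 to 1.63) and 0.912 in PS19 Zbp1+- (0.844 to 0.986). PS19 Zbp1+- also had the highest neuronal sum (1541), with 7 of 10 markers above WT as deposited, against 51% of all genes tested. It had the lowest oligodendrocyte (544) and choroid plexus (23.2) sums. The part of these cell types in this ratio was not tested.

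Strand was not stated for the counting, and Bace1 overlaps genes on the opposite strand. Reads of its antisense gene Gm16536 numbered 217, 224 and 175 in WT, PS19 and PS19 Zbp1+-, which is not the order of Bace1. Rnf214, whose transcripts share 975 identical bases with that of Bace1 on the other strand, had 611, 703 and 794, the order of Bace1. Gm49338, also on the opposite strand, had 67, 120 and 85. The part of these overlaps in the Bace1 difference was not tested. Reads in such overlaps cannot be assigned to one strand from these data.

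The gamma-secretase members were the flattest of the 9 as deposited. Ncstn (ENSMUSG00000003458; chromosome 1, 172066013 to 172082795, minus strand), the substrate-binding subunit, was at 16.5, 16.5 and 16.0 (FPKM, same order). Aph1a (ENSMUSG00000015750; chromosome 3, 95893969 to 95898288, plus strand), which holds the complex together, had 11.6, 11.8 and 11.7. Psen2 (ENSMUSG00000010609; chromosome 1, 180227004 to 180263438, minus strand), a catalytic subunit, had 4.74, 4.38 and 4.73. As deposited, their differences over the 3 comparisons ran from -0.093 to 0.090, both for Psen2. In PS19 Zbp1+- against PS19, Ncstn, Aph1a and Psen2 moved to -0.32, -0.27 and -0.14 under TPM. By total reads they were at -0.23, -0.18 and -0.064. At the deposited scaling each read ratio had an interval that held 1. For Ncstn in PS19 over WT the interval was 0.923 to 1.09, and for Psen2, with 324 to 354 reads, 0.793 to 1.08. Ratios within those bounds cannot be told apart by counting, and with 1 library per genotype no change between genotypes could be tested.

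Of the further subunits, Aph1b, a relative of Aph1a, had an FPKM of 7.38, 7.72 and 7.51 in WT, PS19 and PS19 Zbp1+- and was close to level. Psenen was highest in WT, at 27.5, 23.1 and 21.1, that is -0.24 in PS19 and -0.37 in PS19 Zbp1+- against WT. Aph1a shares 734 identical bases with Gm15429 and overlaps Car14 on the opposite strand, and Ncstn overlaps Copa, so part of their reads could have been left out or assigned elsewhere.

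**Figure D4:**
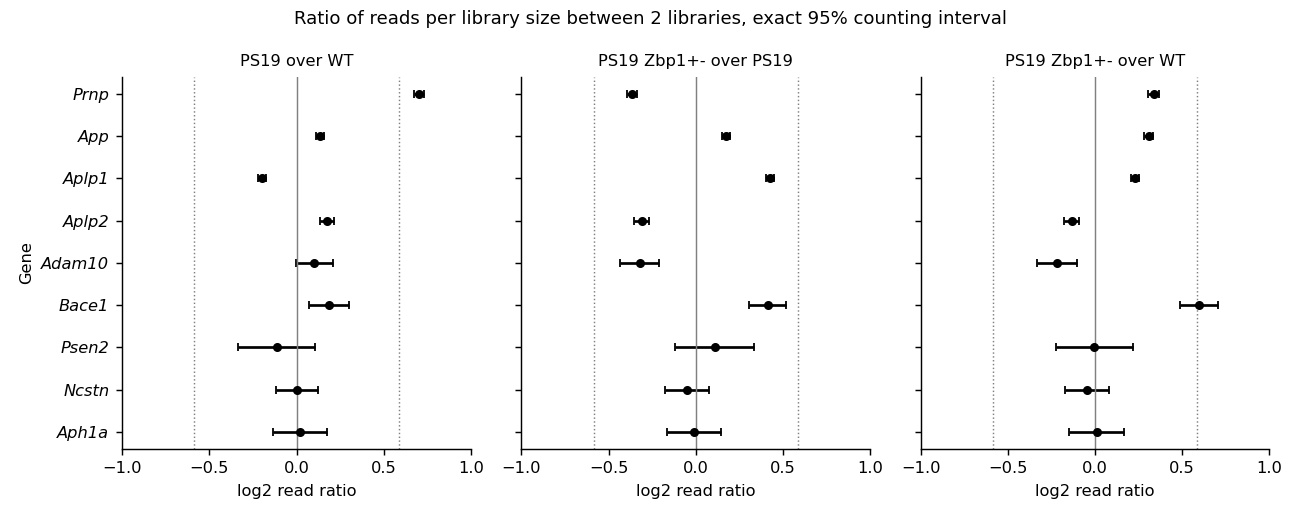
Log2 ratio of reads per library size for the 9 genes in 3 pairs of libraries, with exact 95% counting intervals. Dotted lines mark 1.5-fold. At the deposited scaling, Prnp in PS19 over WT lay past that line at a ratio of 1.63. Bace1 in PS19 Zbp1+- over WT lay just past it at 1.51, with an interval that crossed it. The intervals of Psen2, Ncstn and Aph1a held a ratio of 1 in every panel.

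Counted over the members, 0 of 9 were at least 2-fold higher in PS19 than in WT, against 2.2% of all genes tested, and 0 were at least 2-fold lower, against 0.291%. At 1.5-fold, 1 of 9 was higher (Prnp), against 6.34% of all genes, and 0 were lower, against 2.71%. The median difference of the 9 genes was 0.097 and that of all genes -0.026. Between PS19 Zbp1+- and PS19, 0 of 9 passed 2-fold in either direction (2% of all genes higher and 5.16% lower) and 0 of 9 passed 1.5-fold (9.37% and 12.1%) as deposited. Under TPM 2 of 9, Prnp and Aplp2, were at least 1.5-fold lower there, as were 20.6% of all genes. The medians were -0.0097 for the members and 0.041 for all genes. In PS19 Zbp1+- against WT, 0 of 9 passed 2-fold (1.07% and 2.28% of all genes) and 0 passed 1.5-fold on the log2(FPKM + 1) scale (6.71% and 7.12%), Bace1 being nearest at 0.55, with medians of 0.0086 and 0.010.

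The direction of small differences depends on the scaling. Rescaling each library to the same FPKM sum (TPM) took the all-gene median from 0.041 to -0.21 in PS19 Zbp1+- against PS19 and from 0.010 to -0.13 in PS19 Zbp1+- against WT. In the first of these App turned from 0.17 to -0.11 and Psen2 from 0.090 to -0.14. Scaling by total reads turned the same 2 genes, App to -0.015. Psen2 in PS19 against WT turned to 0.013 under TPM, and Aph1a in PS19 Zbp1+- against WT turned to -0.14 under TPM and -0.13 by total reads. A rescaling shifts all genes of a comparison by nearly the same amount, so distances from the median of all genes barely move. For App in PS19 Zbp1+- against PS19 that distance was 0.13 as deposited, 0.095 under TPM and 0.11 by total reads. Prnp kept its order of libraries, but the gaps moved. PS19 over WT ranged from 0.70 to 0.83 and PS19 Zbp1+- over WT from 0.18 to 0.34. PS19 Zbp1+- against PS19 moved most for Prnp, from -0.36 as deposited to -0.55 by total reads and -0.65 under TPM. In the same comparison Adam10 moved from -0.30 to -0.48 and -0.57, and Bace1 from 0.38 to 0.21 and 0.12.

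**Figure D5:**
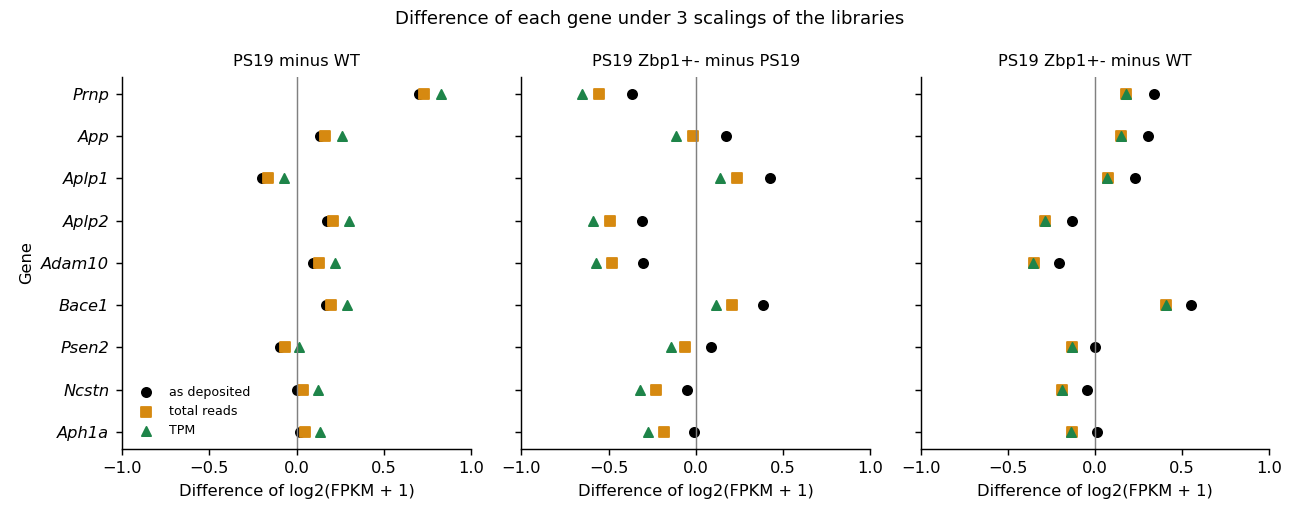
Difference of log2(FPKM + 1) of the 9 genes in 3 pairs of libraries, as deposited (circles), scaled by total reads (squares) and rescaled to TPM (triangles). The rescalings move all genes of a panel the same way, by most in PS19 Zbp1+- minus PS19, where App crosses 0 from 0.17 to -0.11.

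The wider pathway was followed in 77 further genes, of 78 listed (Apbb3 was not matched; other subunits, regulators, relatives of the secretases, App adaptors and sorting receptors, peptidases of amyloid beta, prion protein partners and other substrates). In PS19 against WT, 71 reached an FPKM of 1, 0 were 2-fold higher or lower, 5 were at least 1.5-fold higher and 0 lower, with a median of 0.068. Of all genes tested, 2.2% and 0.291% passed 2-fold and 6.34% and 2.71% passed 1.5-fold, so the higher counts were near the background. The highest were Notch1 at 0.91 (FPKM 1.39 in WT and 3.50 in PS19), a receptor cut by Adam10 and gamma-secretase, Cav1 at 0.73, the caveolin of vessels and a partner of the prion protein, and Notch3 at 0.71. Lrp1, the endocytic receptor that binds App, was at 0.63 (27.8 and 43.5), and the adaptor Shc1 at 0.59. The lowest were the membrane glycoprotein basigin, Bsg, at -0.44, Tspan33, a tetraspanin that escorts Adam10, at -0.43 and Sprn, the prion-like protein shadoo, at -0.32.

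Between PS19 Zbp1+- and PS19, 71 related genes were tested, 1 was 2-fold higher and 2 were 2-fold lower, and at 1.5-fold the counts were 7 and 11, with a median of 0.0058. These too were near the background of 2% and 5.16% at 2-fold and 9.37% and 12.1% at 1.5-fold. Sez6, a substrate of Bace1, was highest at 1.16, with an FPKM of 36.6 (WT), 34.5 (PS19) and 78.5 (PS19 Zbp1+-). Stip1, a ligand of the prion protein, followed at 0.86 (68.0, 57.9 and 106), and Apba1, an adaptor of the App tail, at 0.70 (24.4, 26.3 and 43.2). Ace, a peptidase that can cut amyloid beta, was lowest at -2.29, with 1665, 1791 and 269 reads. The choroid plexus sum went from 2161 to 23.2 between these libraries, and its part in the Ace difference was not tested. Timp3, an inhibitor of Adam17 and related proteases, was at -1.01 (7.53, 11.7 and 5.28) and the matrix metalloprotease Mmp2 at -0.97.

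Among close relatives of the secretases, Adam17, the other classical alpha-secretase, had an FPKM of 2.67 (WT), 3.78 (PS19) and 1.65 (PS19 Zbp1+-). Adam9 had 13.0, 16.1 and 9.86. Both had the order of Adam10, highest in PS19 and lowest in PS19 Zbp1+-, with differences of -0.85 and -0.66 between PS19 Zbp1+- and PS19. Adam19, the third metalloprotease of this list, had the opposite order (1.84, 1.72 and 3.35) and a difference of 0.67. Bace2, the relative of Bace1, was near the lower limit of the filter at 0.683, 1.03 and 0.857. Of the 9 App adaptors, 6 were higher in PS19 Zbp1+- than in PS19 (median 0.46), against 53.7% of all genes. So were 5 of 6 relatives and partners of the prion protein (median 0.50). Other groups lay the other way, against the same 53.7%. Higher were 1 of 6 genes for degradation of amyloid beta (median -0.44), 1 of 6 gamma-secretase regulators (-0.32) and 1 of 4 secretase relatives (-0.39). The medians of the remaining groups ran from -0.082 to 0.16. These values are as deposited, and the all-gene median moved from 0.041 to -0.21 under TPM. Against WT, PS19 Zbp1+- had 1 related gene of 69 at least 2-fold higher (Sez6, 1.08) and 1 lower (Ace, -2.19), against 1.07% and 2.28% of all genes.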

How the data were processed

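RNA-seq of 3 hippocampal samples was used. The authors deposited 1 table of FPKM values, the unit taken from its name and values. Per the submitters' processing notes, Trim Galore 0.6.5, STAR 2.5.3a and featureCounts 2.0.4 were used, and the build mm39 is named. Gene positions in the table instead are those of GRCm38 in GENCODE M21 for 98.3% of the 54409 IDs the annotation shares, and are given so. Strand, pooling of animals and batches are not given in the sources used here. FPKM times gene length was a whole multiple of 1 step (within 0.05 reads) for 100% of nonzero values in each library, which gave whole reads and implied library sizes of 15826984 to 17287957. Those sizes already carry a scaling between libraries.

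Differences were taken as log2(FPKM + 1), a scale that understates changes of weak genes, over protein-coding genes reaching an FPKM of 1 in a library compared. Calls are at 2-fold or 1.5-fold. Read ratios have exact Clopper-Pearson 95% intervals, which cover counting error only since reads carry no molecular identifiers. With 1 library per genotype no test was run. The members, the related genes and the markers were chosen with earlier results of these data known. Genes named are the members, Psenen, Adam17, Bace2, up to 3 extremes of the related genes per direction and comparison, the 5 genes nearest to Prnp, its neighbours and the checks. Aph1b, Adam9, Adam19, Lrp1, Shc1 and overlapping genes were named after their values were seen, and 1 further gene is not reported here. Promoters came from RefSeq (GRCm38.p6), with entries for 8 of the 9 genes, Bace1 being the other. Copies were sought with BLAST 2.17.0 at 95% identity over 200 bases. In simulated libraries of 54532 genes for PS19 against WT, 200 of 200 genes changed by 4-fold were called the right way, with 1 of 12175 unchanged genes called. Apart from the planted changes those libraries differed by counting error only, so the counts give no rate of false calls between animals. Tools were scipy 1.17.1, numpy 2.4.6, matplotlib 3.10.9 and pandas 2.3.3 in Python 3.11.15.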

Additional observations from a re-analysis of the deposited data

How the results depend on the processing

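No paired analysis was possible because each genotype has 1 library and the replicate numbers only name it, and no library could be left out. Of 54 member differences under TPM or total-read scaling, 7 changed sign. The other alternatives leave a gene's own sign as it is by construction. The median difference of the 9 genes under TPM was 0.22 in PS19 against WT and -0.27 in PS19 Zbp1+- against PS19, and by total reads -0.18 in the latter. The median of the related genes under TPM was 0.19, -0.25 and -0.028 in PS19 against WT, PS19 Zbp1+- against PS19 and PS19 Zbp1+- against WT. By total reads it was -0.16 and -0.026 in the last 2 of these. It was 0.13 in PS19 Zbp1+- against PS19 at an FPKM of at least 5, and 0.029 in PS19 Zbp1+- against WT with no filter.

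Under TPM with a threshold of 1.5-fold, a pair of settings added after the data were seen, 2 members were lower in PS19 Zbp1+- than in PS19. With a threshold of 1.5-fold alone, 1 member was higher in PS19 than in WT, and the related genes had 5 higher there, 7 higher and 11 lower in PS19 Zbp1+- against PS19, and 8 higher in PS19 Zbp1+- against WT. At 2-fold, the related genes had 1 higher in PS19 against WT with a pseudocount of 0.1 or under TPM. In PS19 Zbp1+- against PS19 they had 6 lower with that pseudocount, 0 higher and 6 lower under TPM, and 0 higher and 4 lower by total reads. In PS19 Zbp1+- against WT they had 2 lower with that pseudocount and 0 higher under either scaling.

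Reads without division by length put App, Aplp1 and Aplp2 at 40.9%, 43.6% and 15.5% of the family in WT, 44.7%, 37.8% and 17.5% in PS19, and 43.7%, 44.1% and 12.2% in PS19 Zbp1+-. Per FPKM they were at 15.6%, 71.4% and 13.1%, then 18.1%, 66.2% and 15.7%, then 16.8%, 72.9% and 10.4%. Per principal transcript length, an alternative added after the data were seen, they were at 36.01%, 52.0% and 11.9%, then 40.2%, 46.1% and 13.7%, then 38.3%, 52.3% and 9.36%. Adam10 over Bace1 in reads was 1.24, 1.17 and 0.706. App exceeded Aplp1 in PS19 by reads and in no other of these 9 settings and libraries.

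Over all genes, 280 were higher and 37 lower in PS19 than in WT, and the alternatives ranged from 143 to 806 and from 23 to 344. The counts were 255 and 659 in PS19 Zbp1+- against PS19 (119 to 1197 and 344 to 1544) and 133 and 283 in PS19 Zbp1+- against WT (76 to 834 and 135 to 886). The share of higher calls was 27.9% in the second comparison, 10.5% under TPM and 14.6% by total reads, and 32% in the third, 17.1% and 17.3%.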
